A study of Rattus norvegicus with 224 samples.

Results

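Ddit4 (DNA damage inducible transcript 4, also called Rtp801 or Redd1) is described here in rat aortic smooth muscle cells across every drug dose, insulin condition, glucose level and hour of a 224-array study. It was taken as the probes whose symbol in the array's annotation is Ddit4, which gave 1 probe (feature 11116) of 11575, and 1 gene of the 6502 named. The gene was chosen by its rapamycin minus DMSO scores in these same arrays. The rapamycin differences from DMSO are therefore given below as a description with no test, and tests are kept for paclitaxel, insulin, glucose and hours.

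Ddit4 encodes a short-lived protein that restrains mTORC1, the kinase complex that couples growth factors and nutrients to protein synthesis. It acts through the TSC1 and TSC2 complex, which switches off Rheb, the GTPase that activates mTORC1. Its transcription is known to be induced by hypoxia through HIF-1, by amino acid and endoplasmic reticulum stress through ATF4, by DNA damage through p53, and by glucocorticoids. Rapamycin inhibits mTORC1 after binding FKBP12, so Ddit4 and the drug act on the same kinase. Paclitaxel stabilises microtubules and served here as a drug with another target.

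RefSeq places rat Ddit4 (gene identifier 140942) on chromosome 20 of GRCr8, from 28434938 to 28437037, on the minus strand. The start of the gene is shown because the pathways that induce Ddit4 act on its promoter, and the responses of their other targets are given further on. The window holds 250 bases before and 50 after the annotated start, chr20:28436988-28437287 on the minus strand of GRCr8, from RefSeq, with the 5-base HIF cores ACGTG and GCGTG in capitals.
Ddit4 promoter: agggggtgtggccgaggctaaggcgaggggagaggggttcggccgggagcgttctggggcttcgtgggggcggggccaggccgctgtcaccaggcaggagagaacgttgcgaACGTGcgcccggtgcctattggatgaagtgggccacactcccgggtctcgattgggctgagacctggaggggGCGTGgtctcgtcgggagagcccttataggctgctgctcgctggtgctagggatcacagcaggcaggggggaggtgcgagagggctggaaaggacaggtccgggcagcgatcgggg
The window held 1 match to ACGTG and 1 to GCGTG, searched on both strands, and these did not overlap. Of 33469 rat promoter windows of the same length, 19.3% held ACGTG, 29.7% held GCGTG and 41.6% held at least 1 of them, so such a match is common. The CCAAT box (CCAAT) matched 2 times, against 37.5% of windows with any match. No match was found for the ATF4 element TGATGNAA or the FOXO element TGTTTAC, which 3.98% and 3.78% of windows held. These are letter matches only. The window was 68.3% G and C, above 89.4% of the windows, whose median was 51.7%.

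The cells were explanted from aortas of newborn rats, passaged and made quiescent in low serum, so they are a culture model without the vessel wall, and the labels do not say how many animals they came from. All groups share that quiescence. They were held in 5 or 25 mM glucose, received 100 nM insulin or its vehicle, and were then given DMSO or a drug for 6 or 24 h. Rapamycin was used at doses of 0.01, 1 and 100 ng/mL, and paclitaxel at doses of 0.01, 1 and 1000 ng/mL. The 56 groups held 4 arrays each, 1 from each replicate run A to D, with the cells in the Cy5 channel and a pool of newborn pup RNA in the Cy3 channel. Nothing in the labels tells if runs came from separate cultures or animals, so p-values measure the spread between these arrays, and the number of arrays limits the precision. Each array was deposited as scores with mean 0 and SD 1 and each probe is near its own centre, so differences are counted in array SDs rather than log2 folds, and a score below 0 does not mean that the RNA was absent. Higher most likely means more RNA in the cells, from the dyes in the labels, and every direction below would turn together otherwise; the lowest correlation between 2 arrays was -0.526, and 1.46% of pairs lay under -0.3.

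Of the 11 smooth muscle markers listed, 9 had a probe, as did 5 of 9 endothelial, 5 of 8 leukocyte and 4 of 7 fibroblast markers, but relative scores cannot show whether a marker is expressed. In bulk RNA, fewer cells of a type and less RNA per cell cannot be told apart. Over 8 comparisons (rapamycin at 100 and paclitaxel at 1000 ng/mL, insulin and glucose, at both hours) 0 to 3 of the 9 smooth muscle markers, 0 of the endothelial and 0 to 1 of the leukocyte and fibroblast markers were called at an adjusted p under 0.05. The most, 3 of 9 lower, were called for 1000 ng/mL paclitaxel at 24 h, 33.3% against 1.32% of all probes, and over the 8 comparisons 0.294% to 10.0% of all probes were called. A pair of run A arrays, rapamycin 0.01 ng/mL at 25 mM glucose and 6 h with and without insulin, correlated at r = 0.9999, with 99.5% of probes within 0.01 and Ddit4 at 1.46 in both. These may be 1 hybridisation deposited under both labels, so the 6 h results that hold them are also given without them.

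Ddit4 was among the more variable probes. Its score ran from -4.55 to 3.60 over the 224 arrays with an SD of 1.74, larger than that of 96.6% of probes. Ordered by their mean over the 16 arrays of a drug condition and hour, both rapamycin doses of 1 and 100 ng/mL at 6 h were at the bottom, the same doses at 24 h came next, and the other 5 conditions at 24 h were at the top. The lowest was 1 ng/mL rapamycin at 6 h, at -2.43 ± 1.13 (SD, n = 16), with its lowest, median and highest arrays at -4.19, -2.24 and -0.494. Next was 100 ng/mL at 6 h, at -2.17 ± 1.40 (SD, n = 16), with arrays from -4.55 through a median of -1.95 to -0.291. All 16 arrays of each lay below 0.

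At 24 h the same doses spread far more widely. Rapamycin at 100 ng/mL stood at -0.744 ± 1.80 (SD, n = 16), from -4.34 through a median of -0.555 to 2.40, with 11 arrays below 0. Rapamycin at 1 ng/mL stood at -0.386 ± 1.61 (SD, n = 16), from -4.22 through a median of -0.118 to 1.91, with 9 arrays below 0. Both overlap the DMSO arrays, whose scores at 24 h ran from -1.25 through a median of 1.26 to 3.09, with a mean of 1.06 ± 1.17 (SD, n = 16). At 6 h the DMSO arrays ran from -1.79 through 0.0950 to 1.92, with a mean of 0.108 ± 1.11 (SD, n = 16).

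The remaining conditions lay near their DMSO arrays. At 6 h the means were -0.314 ± 1.18 for 1 ng/mL paclitaxel, -0.251 ± 1.22 for 0.01 ng/mL paclitaxel, 0.0571 ± 1.07 for 0.01 ng/mL rapamycin and 0.644 ± 1.41 for 1000 ng/mL paclitaxel (SD, n = 16 each). At 24 h they were 0.915 ± 1.42 for 1 ng/mL paclitaxel, 1.24 ± 1.28 for 0.01 ng/mL paclitaxel, 1.26 ± 1.44 for 1000 ng/mL paclitaxel and 1.27 ± 1.38 for 0.01 ng/mL rapamycin (SD, n = 16 each). Neighbours in the order of all 14 means differed by 0.015 to 0.536, next to a standard error of a step of 0.473, except for the 1.43 between 100 ng/mL rapamycin at 6 h and at 24 h. That step is an hour difference in the arrays that chose the gene, with 1.32, 3.20, 2.89 and -1.69 in runs A to D, and is given with no test.

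**Figure D1:**
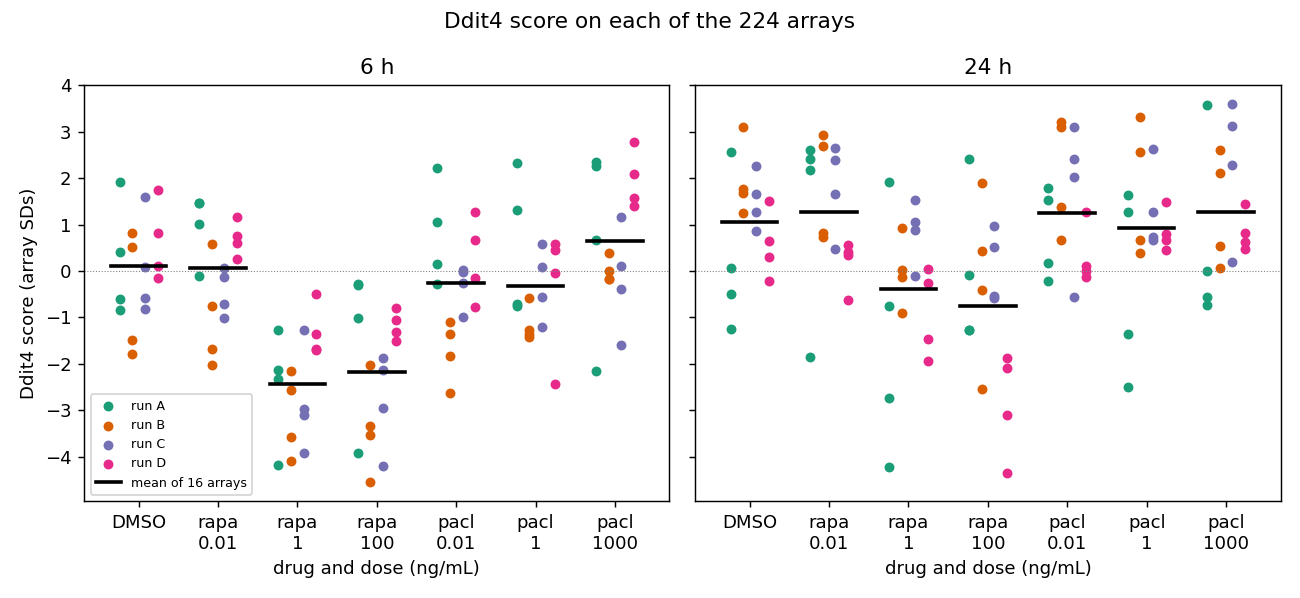
Ddit4 score in array SDs (vertical axis) on each of the 224 arrays, by drug and dose in ng/mL (rapa, rapamycin; pacl, paclitaxel), with 6 h on the left and 24 h on the right. Points are arrays coloured by run and bars are means of 16 arrays; all points of 1 and 100 ng/mL rapamycin at 6 h lie below 0, while at 24 h 11 of 16 do at 100 ng/mL and 9 of 16 at 1 ng/mL.

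Set against DMSO, the rapamycin differences had a step between 0.01 and 1 ng/mL and none of that size above it. At 6 h Ddit4 differed from DMSO by -2.53 ± 0.473 (SE) array SDs at 1 ng/mL, by -2.28 ± 0.473 at 100 ng/mL and by -0.0511 ± 0.473 at 0.01 ng/mL. The 4 runs gave -2.70, -2.61, -2.89 and -1.94 at 1 ng/mL and -1.60, -2.87, -2.86 and -1.80 at 100 ng/mL, in the order A to D. All 4 runs lay below 0 at both doses. Array by array against DMSO of the same run, insulin and glucose, 16 of 16 pairs were below 0 at 1 ng/mL and 15 of 16 at 100 ng/mL, and 10 and 9 of the 16 arrays lay below every DMSO array. Without the nearly identical pair, the difference at 0.01 ng/mL was -0.268. As background, limma called 1.54% of all probes at 1 ng/mL, 5.08% at 100 ng/mL and 0% at 0.01 ng/mL (397 at an unadjusted p under 0.05).

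At 24 h the differences from DMSO were -1.44 ± 0.473 (SE) at 1 ng/mL, -1.80 ± 0.473 at 100 ng/mL and 0.216 ± 0.473 at 0.01 ng/mL. The runs gave -1.67, -1.96, -0.677 and -1.46 at 1 ng/mL. At 100 ng/mL they gave -0.279, -2.10, -1.42 and -3.40, again in the order A to D, so the size at that dose differed most between runs. In both, 13 of 16 pairs lay below 0, and 4 and 7 arrays lay below every DMSO array. The background was 1.47% of probes called at 1 ng/mL, 2.25% at 100 ng/mL and 0% at 0.01 ng/mL (203 at an unadjusted p under 0.05).

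The rapamycin difference was found in most combinations of insulin and glucose. At 1 ng/mL and 6 h it was -2.55 in vehicle with 5 mM glucose, -2.11 in vehicle with 25 mM, -2.90 in insulin with 5 mM and -2.57 in insulin with 25 mM, with 4 of 4 runs below 0 in each. At 100 ng/mL and 6 h the same combinations gave -2.68, -1.05, -2.56 and -2.85. The smaller value in vehicle with 25 mM had 3 of 4 runs below 0. At 1 ng/mL and 24 h the combinations gave -0.651, -2.31, -1.23 and -1.58 in the same order. In vehicle with 5 mM glucose 2 of 4 runs lay below 0 there, against 4, 3 and 4 of 4 in the others. At 100 ng/mL and 24 h they gave -0.286, -1.53, -3.37 and -2.03. The extremes there were vehicle with 5 mM glucose, where the rapamycin arrays of runs A to D were -0.0950, 1.89, 0.509 and -1.87 against DMSO at -1.25, 1.67, 0.869 and 0.290, and insulin with 5 mM, where they were -1.26, -0.415, 0.974 and -4.34 against 2.56, 3.09, 1.28 and 1.497. In the first of these the groups overlapped, and in the second they did not.

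**Figure D2:**
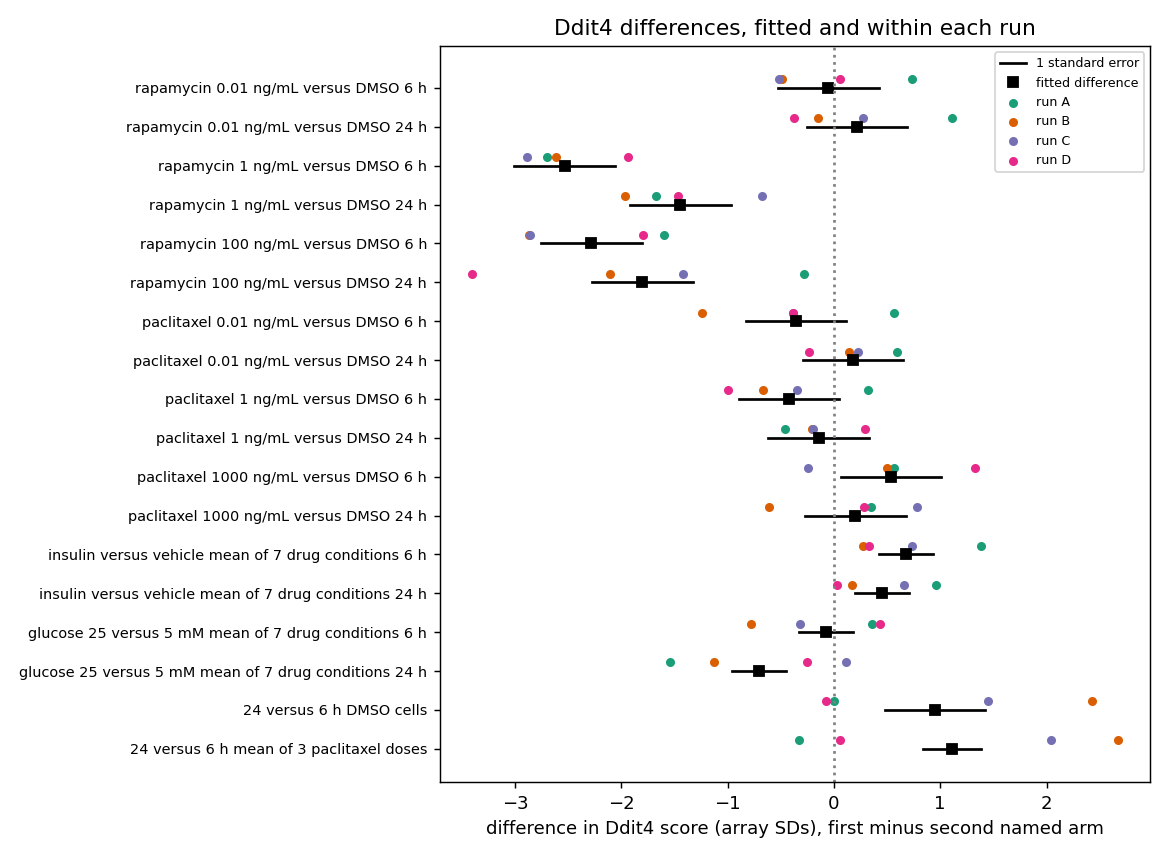
Differences in Ddit4 score in array SDs (horizontal axis), first named arm minus the second, for 18 comparisons (rows). Squares are fitted differences, lines 1 standard error to each side, and coloured points the difference within each run; the 1 and 100 ng/mL rapamycin rows have all 4 runs below 0, and in the hour rows runs B and C lie far above runs A and D.

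Paclitaxel gave Ddit4 no difference that passed the test. These comparisons use the same DMSO arrays as the rapamycin ones, as do those within DMSO cells further on. At 6 h the differences from DMSO were -0.359 (95% interval -1.29 to 0.574), -0.422 (-1.35 to 0.511) and 0.536 (-0.397 to 1.47) at 0.01, 1 and 1000 ng/mL, with limma p of 0.449, 0.374 and 0.258 before adjustment and 0.900 or more after it. The backgrounds were 0%, 0% and 0.294% of probes called, with 349 and 599 at an unadjusted p under 0.05 for the 2 lower doses. At 24 h the differences were 0.181 (-0.752 to 1.11), -0.144 (-1.08 to 0.790) and 0.201 (-0.732 to 1.13), with limma adjusted p of 1, 1 and 0.937 and backgrounds of 0%, 0% and 1.32% (203 and 215 unadjusted for the 2 lower doses).

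Between paclitaxel doses, Ddit4 was 0.895 higher at 1000 than at 0.01 ng/mL at 6 h (95% interval -0.0382 to 1.83, limma adjusted p = 0.736, background 0.156% of probes). Runs B and D gave 1.74 and 1.71 and runs A and C -0.00675 and 0.139, so the spread between runs was as large as the difference. At 1000 ng/mL against DMSO at 6 h, 2 of 27 measured ATF4 targets passed, 7.41% against 0.294% of all probes. The list median was 0.649 against 0.004 over all probes, and 1, 0.436, 1.08 and 0.673 in runs A to D. With runs as the unit 0 of 27 passed. The 2 were Pck2 and Aldh1l2, mitochondrial metabolic enzymes, which rose by 1.68 and 1.54 (limma adjusted p = 0.0425 and 0.0320). Trib3 and Chac1, also ATF4 targets, had differences of 2.67 and 2.64 (limma adjusted p = 0.0977 for both). At 24 h the difference in Ddit4 between the doses was 0.0196 (-0.913 to 0.953, limma adjusted p = 0.995, background 1.44%).

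Ddit4 stood higher with insulin, just short of the threshold at 6 h. Averaged over the 7 drug conditions, 56 insulin arrays had a mean of -0.282 ± 1.63 (SD) and 56 vehicle arrays -0.962 ± 1.55, with medians of -0.0745 and -0.805 and ranges that overlap almost wholly, from -4.55 to 2.35 and from -4.19 to 2.77. The difference was 0.680 ± 0.253 (SE, 95% interval 0.181 to 1.18, limma adjusted p = 0.0821), where 7.07% of probes were called. It was above 0 in all 4 runs (1.38, 0.278, 0.732 and 0.330 for A to D) and in all 7 drug conditions, from 0.265 under 100 ng/mL rapamycin to 1.11 under 1000 ng/mL paclitaxel. The adjusted p was 0.0830 without the nearly identical pair, and 0.0244 with the run blocked within each hour. With runs as the unit the adjusted p was 0.236. Without run A the difference was 0.447 (limma adjusted p = 0.498) and without run C 0.663 (limma adjusted p = 0.355).

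At 24 h the insulin difference was 0.453 ± 0.253 (SE, -0.0459 to 0.952, limma adjusted p = 0.411, 3.98% of probes called), again above 0 in all 4 runs (0.959, 0.168, 0.659 and 0.0261). It was above 0 in 6 of 7 drug conditions, and the exception was 100 ng/mL rapamycin at -0.897. In DMSO cells alone, 8 against 8 arrays, insulin gave 1.11 (-0.212 to 2.43, limma adjusted p = 0.938) at 6 h and 0.895 (-0.424 to 2.21, adjusted p above that of 6 h) at 24 h, with 0% of probes called in either (661 and 410 at an unadjusted p under 0.05). The hours did not differ beyond error in the insulin effect, by -0.227 (-0.932 to 0.478, limma adjusted p = 0.833, background 2.12%), or -0.230 without the nearly identical pair.

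The insulin difference with and without rapamycin is given as a description, since it is built from the scores that chose the gene. The insulin difference under 100 ng/mL rapamycin minus that under DMSO was -0.843 ± 0.945 (SE) at 6 h and -1.79 ± 0.945 at 24 h. The runs at 24 h gave -4.61, -0.126, 0.346 and -2.78, so runs A and D carried that value. Over all probes limma called 0% in either contrast (410 and 375 had an unadjusted p under 0.05). The insulin difference at 25 minus that at 5 mM glucose was -0.493 (-1.49 to 0.505, limma adjusted p above 0.9) at 6 h and -0.0579 (-1.06 to 0.940, limma adjusted p = 1) at 24 h, where 0% of probes were called (346 and 384 unadjusted). The 6 h value was -0.486 without the nearly identical pair.

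High glucose went with lower Ddit4 at 24 h, close to the threshold, and with no such difference at 6 h. At 24 h the 56 arrays at 25 mM had a mean of 0.308 ± 1.63 (SD) and the 56 at 5 mM 1.01 ± 1.55, with medians of 0.506 and 1.12 and ranges from -4.22 to 3.60 and from -4.34 to 3.58. The difference was -0.704 ± 0.253 (SE, -1.20 to -0.205, limma adjusted p = 0.0558), where 10.0% of probes were called. Runs A and B gave -1.54 and -1.13 and runs C and D 0.113 and -0.253. By drug condition it lay below 0 in 6 of 7, from -1.67 under 1 ng/mL paclitaxel to 0.160 under 1000 ng/mL. The adjusted p was 0.0145 with the run blocked within each hour and 0.0272 without run C, whose removal moved the difference to -0.976. It was 0.337 with runs as the unit. Removing run A left -0.424 (limma adjusted p = 0.390) and removing run B -0.561 (limma adjusted p = 0.274).

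At 6 h the glucose difference was -0.0760 (-0.575 to 0.423, limma adjusted p = 0.943, 3.53% of probes called), and -0.138 without the nearly identical pair. Its sign turned without run B (0.158) or without run C (0.00576). In DMSO cells alone glucose gave -0.598 (-1.92 to 0.721, limma adjusted p = 0.941, background 0.0346%) at 6 h and -0.386 (-1.71 to 0.933, limma adjusted p = 0.881, background 0.285%) at 24 h. The glucose effect at 24 h minus that at 6 h was -0.628 (-1.33 to 0.0777, limma adjusted p = 0.426, background 2.40%), so the hours were not shown to differ. Without the nearly identical pair it was -0.566 (limma adjusted p = 0.506).

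**Figure D3:**
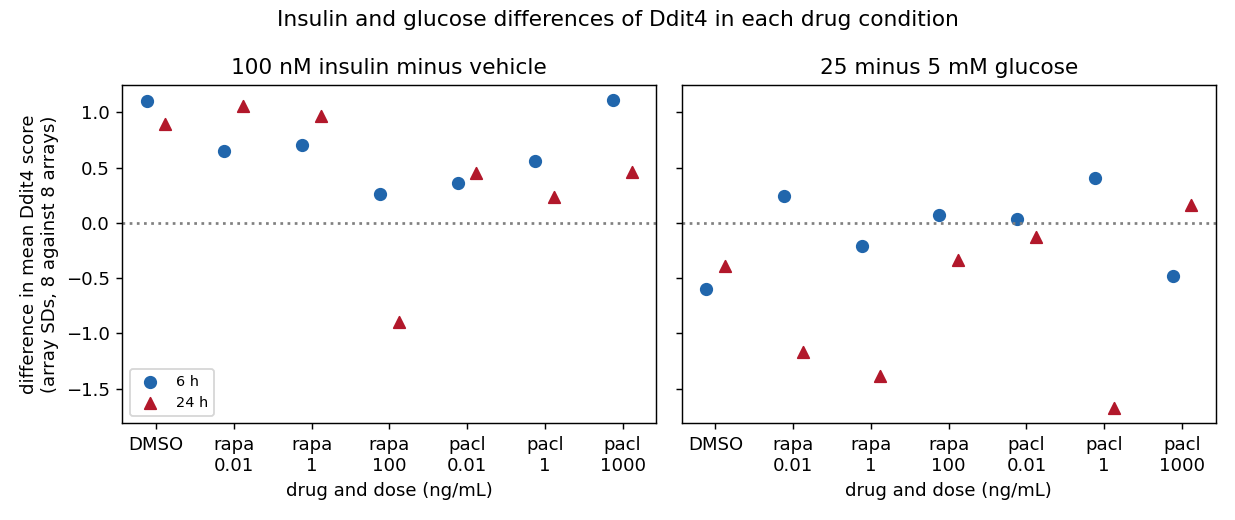
Difference in mean Ddit4 score in array SDs (vertical axis) for insulin minus vehicle on the left and 25 minus 5 mM glucose on the right, 8 against 8 arrays, by drug and dose in ng/mL. Circles are 6 h and triangles 24 h; all 7 insulin circles lie above 0, the insulin triangle of 100 ng/mL rapamycin lies at -0.897, and 6 of 7 glucose triangles lie below 0.

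Ddit4 was higher at 24 than at 6 h in the paclitaxel arrays, the single tested comparison in which it was called, but the difference came from runs B and C. Over the 3 paclitaxel doses 48 arrays at 24 h had a mean of 1.14 ± 1.36 (SD) and 48 at 6 h 0.0268 ± 1.32, a difference of 1.11 ± 0.273 (SE, 0.572 to 1.65, limma adjusted p = 0.00076), where 23.8% of probes were called. The runs A to D gave -0.325, 2.67, 2.04 and 0.0543. Leaving out run B gave 0.590 (limma adjusted p = 0.169), leaving out run C gave 0.801 (limma adjusted p = 0.0935), and taking the 4 runs as the unit gave an adjusted p of 0.302. In DMSO cells the difference was 0.950 ± 0.473 (SE, 0.0170 to 1.88, limma adjusted p = 0.258, 7.24% of probes called), with runs at -0.0015, 2.43, 1.45 and -0.0773. These DMSO arrays also entered the rapamycin differences that chose the gene, so this test is not free of that choice.

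The split between runs recurred across the drug conditions. Run B was higher at 24 h in all 7 conditions, by 1.32 to 3.81, and run C by 1.45 to 3.66. Run A ranged from -0.787 to 1.32 and run D from -1.69 to 1.21. Taken as deviations from the group means, Ddit4 in runs A to D stood at 0.541, -0.921, -0.342 and 0.721 at 6 h, and at -0.490, 0.583, 0.713 and -0.806 at 24 h (28 arrays each). Each run's deviations at the 2 hours have opposite signs, and components linked to the runs had been removed from the table before deposition. A run whose mean over both hours is held near 0 must have opposite signs, so the signs are not read as a result. Drug, insulin and glucose differences are taken within a run and hour, so a run's deviation at an hour cancels in their size. It remains in the error of the main fit. There the limma adjusted p of insulin at 6 h and glucose at 24 h was higher than with the run blocked within each hour. In the hour difference the deviation does not cancel, and its part in that difference was not tested.

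**Figure D4:**
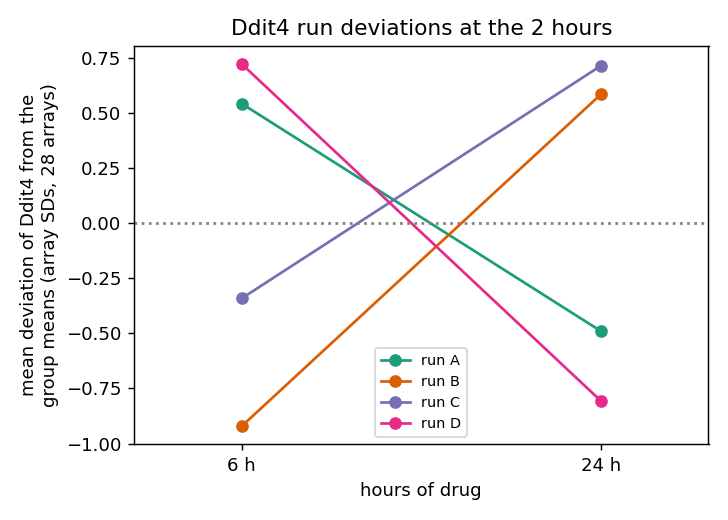
Mean deviation of Ddit4 from the group means in array SDs (vertical axis) for each run at 6 and 24 h (horizontal axis), 28 arrays a point. Runs A and D lie above 0 at 6 h and below it at 24 h, and runs B and C the other way round.

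Few other genes of the pathway were called in most comparisons, and the most were called with glucose at 24 h. Of 57 listed genes of the mTORC1 pathway 32 had a probe, and Tsc1, Tsc2 and Sesn1 were not among those measured. In the 8 comparisons 0 to 7 of the 32 were called. Rheb, the direct activator of mTORC1, differed by -0.0748 and Mtor, the kinase itself, by 0.470 between 100 ng/mL rapamycin and DMSO at 6 h. In that comparison 1 of 32 was called, Rragd, a GTPase that brings mTORC1 to the lysosome, higher by 1.20, 3.12% against 5.08% of all probes, and at 24 h 0 of 32 against 2.25%. With insulin 4 of 32 were called at 6 h, 12.5% against 7.07% of all probes, and 2 at 24 h, 6.25% against 3.98%. With glucose 1 was called at 6 h, 3.12% against 3.53%, and this was Rragd, which rose by 0.696 (limma adjusted p = 0.0116). At 24 h 7 were called, 21.9% against 10.0%, 6 of them lower, and without run B 1 was called. Among these were Sesn2, another stress-induced restraint on mTORC1, which fell by 1.81, and Rheb, which fell by 0.405 (limma adjusted p = 2.09e-06 and 0.0180). With paclitaxel at 1000 ng/mL 1 was called at 6 h, Ywhah, a 14-3-3 protein, which fell by 1.05 (limma adjusted p = 0.0425; 0.294% of all probes were called), and 0 at 24 h against 1.32%. With runs as the unit 0 probes were called for insulin at either hour and for glucose at 24 h, so none of these members was.

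Many HIF-1 targets rose with insulin at 6 h. Of 32 measured, 19 rose and 1 fell, 62.5% against 7.07% of all probes, and their median difference was 0.691 against 0.00791 over all probes. Ddit4's 0.680 lay close to that median. Slc16a3, a lactate exporter, rose by 2.57 (limma adjusted p = 3.39e-11), Slc2a1, the glucose transporter GLUT1, by 2.00 (limma adjusted p = 5.97e-10) and Bnip3, a mitochondrial autophagy receptor, by 1.93 (limma adjusted p = 1.7e-08). Adm, a vasodilator peptide, fell by 0.730 (limma adjusted p = 0.00951). Within runs A to D the median of the list was 1.11, 0.259, 1.02 and 0.273. Without run A 13 rose and 1 fell (1.42% of all probes called), without run C 11 rose and 0 fell (1.51%), and with runs as the unit 0 of 11575 probes were called. At 24 h 3 of 32 rose, 9.38% against 3.98% of all probes, with a median of 0.0296 for the list, and Slc2a1 stood at -0.520 (limma adjusted p = 0.314). Between 100 ng/mL rapamycin and DMSO at 6 h 4 of 32 were called, 12.5% against 5.08% of all probes, all lower, with Slc2a1 at -2.46, Bnip3 at -1.97 and Pdk1, which inhibits pyruvate dehydrogenase, at -1.49, and a median of -0.305. In runs A to D the 6 h median was -0.166, -0.563, -0.597 and -0.361, and with runs as the unit 3 were lower. Without run C 1 of 32 was lower (2.66% of all probes called), and without run D 1 was lower and 1 higher (2.05%). At 24 h 0 were called against 2.25%, Slc2a1 stood at -0.136 and Bnip3 at -0.184, while Ddit4 stood at -1.80. With high glucose at 6 h 9 of 32 were lower and 0 higher, 28.1% against 3.53% of all probes. The list median was -0.441 there, while Ddit4 stood at -0.0760. In runs A to D that median was -0.513, -0.744, -0.4 and -0.152, and with runs as the unit 6 were lower. At 24 h glucose gave 5 lower and 1 higher, 18.8% against 10.0%, with a list median of -0.190 and Ddit4 at -0.704.

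Many ATF4 targets fell with high glucose at 24 h in the fit over 4 runs, with list medians below 0 in runs B and D alone. Of 27 measured, 21 fell and 0 rose, 77.8% against 10.0% of all probes, with a median of -1.24 against -0.0068 over all probes. Trib3, a pseudokinase, fell by 2.83 (limma adjusted p = 5e-08), Slc7a5, a leucine carrier, by 2.47 (limma adjusted p = 2.89e-07) and Chac1, which degrades glutathione, by 2.47 (limma adjusted p = 1.42e-06). Within runs A to D the median of the list was 0.312, -2.99, 0.340 and -2.02, while Ddit4 gave -1.54, -1.13, 0.113 and -0.253. Run A was thus lowest for Ddit4 and above 0 for the list. Without run B 4 fell and 1 rose, with a list median of -0.521 (5.56% of all probes called), without run D 15 fell, with a list median of -0.852 (4.95%), and with runs as the unit 0 of 11575 probes were called. At 6 h 1 of 27 was called, 3.7% against 3.53% of all probes, Pck2, which rose by 0.815 (limma adjusted p = 0.0184). Between 100 ng/mL rapamycin and DMSO 1 of 27 was lower at 6 h (3.7% against 5.08% of all probes), the amino acid carrier Slc38a2 at -1.54, and 4 at 24 h (14.8% against 2.25%), among them Phgdh, the first enzyme of serine synthesis, at -2.14, Pck2 at -2.11 and Aldh1l2 at -1.70, with medians of 0.0993 and -0.525. In runs A to D the list median of that rapamycin difference at 24 h was -0.0818, -1.02, 0.101 and -1.98. Without run D 1 of 27 was lower there (1.41% of all probes called), and with runs as the unit 0 (0.510%). Insulin gave 2 of 27 lower at 6 h (7.41% against 7.07%) and 1 at 24 h (3.7% against 3.98%), shares near those of all probes. The 1 at 24 h was Atf4 itself, which fell by 1.23 (limma adjusted p = 0.000559).

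**Figure D5:**
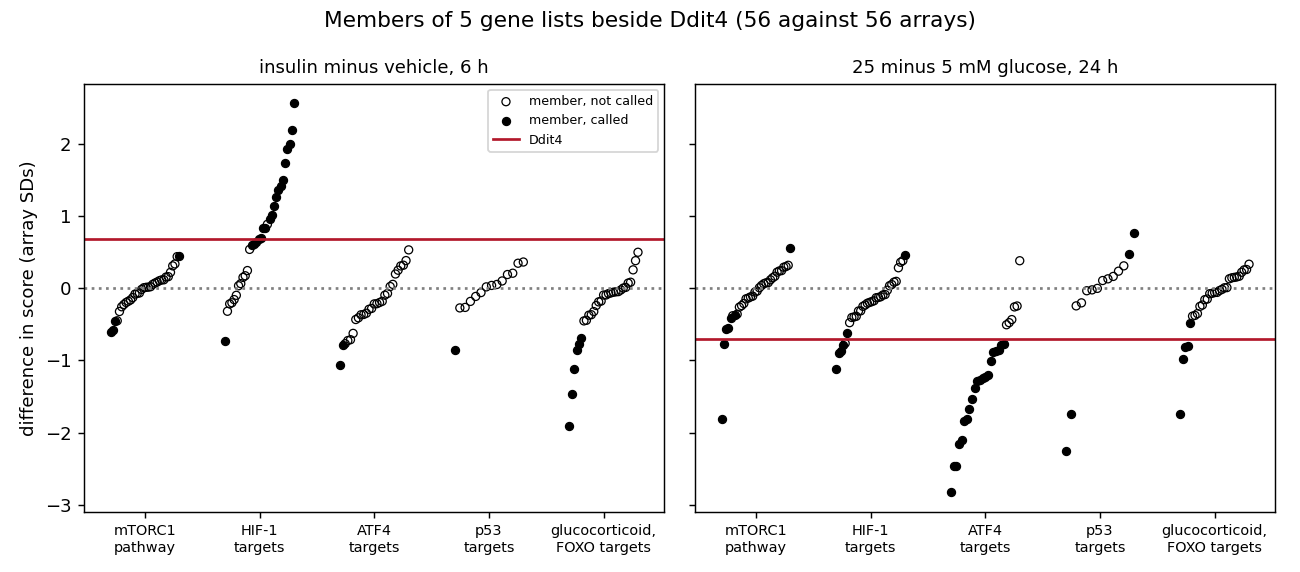
Differences in score in array SDs (vertical axis) of the measured members of 5 gene lists, ordered by size within each list, for insulin minus vehicle at 6 h on the left and 25 minus 5 mM glucose at 24 h on the right. Filled points passed an adjusted p of 0.05 and the horizontal line is Ddit4, at 0.680 on the left, near the middle of the HIF-1 targets, and at -0.704 on the right, above most ATF4 targets.

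Members of the p53 and glucocorticoid or FOXO lists went several ways. Of 14 measured p53 targets, 0 to 4 were called in each of the 8 comparisons, at most 28.6%, where 0.294% to 10.0% of all probes were. With insulin at 24 h 4 of 14 were called, 28.6% against 3.98%, with a list median of 0.422 beside 0.453 for Ddit4. Ccng1, Phlda3 and Cdkn1a rose by 0.948, 0.666 and 0.610, and Gadd45a stood at -0.832 (limma adjusted p from 0.000234 to 0.0447). Without run A, without run C or with runs as the unit 0 of 14 were called there. With glucose at 24 h, where 4 of 14 were called against 10.0%, Plk2, a kinase, fell by 2.26 and Gadd45a, a growth arrest gene that is also on the FOXO list, by 1.74, while Ccng1 rose by 0.770 and Cdkn1a, the inhibitor p21, by 0.482 (limma adjusted p from 6.68e-12 to 0.0348). Cdkn1a rose by 1.41 with 1000 ng/mL paclitaxel at 24 h (limma adjusted p = 0.00136), where Ddit4 differed by 0.201. Of 29 glucocorticoid and FOXO targets 3 were called between 100 ng/mL rapamycin and DMSO at 6 h, 10.3% against 5.08% of all probes, all higher, opposite to Ddit4: Tsc22d3, a glucocorticoid-induced leucine zipper, by 4.70, Klf6 by 2.50 and Klf4 by 2.25. This list, like the others, was chosen with earlier results of these data known, so that share is a description. With insulin at 6 h 6 of 29 fell, 20.7% against 7.07% of all probes, led by Ypel3 by 1.91, and 0 rose, and Txnip, which restrains glucose uptake, stood at -0.0924 (limma adjusted p = 0.922). With high glucose at 24 h 5 of 29 were lower and 0 higher, 17.2% against 10.0% of all probes. Ddit4 stood at -0.704 there, Tsc22d3 at -0.976 and Klf4 at -0.818. The list median was -0.0588, and with runs as the unit 0 of 29 were called.

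The genes whose pattern was most like that of Ddit4 were sought by Pearson's r over the 56 group means, which share the rapamycin groups and all technical steps, so r is a description. The highest were Serpinh1, a collagen chaperone (r = 0.818), Papola, a poly(A) polymerase (0.804), G0s2, an inhibitor of fat breakdown (0.784), Hnrnpa2b1, an RNA-binding protein (0.758), and Lman1, a cargo receptor of the secretory pathway (0.752). Sesn2 (0.733), Prickle1 (0.729), Slc1a5, a glutamine carrier (0.727), Cdt1, a replication licensing factor (0.717), and Gmps, an enzyme of guanine nucleotide synthesis (0.713), followed. The median over the other genes was -0.0009. Without the 16 groups of 1 and 100 ng/mL rapamycin, r over the remaining 40 was 0.809 for G0s2, 0.775 for Papola and 0.661 for Sesn2, but 0.449 for Hnrnpa2b1 and 0.407 for Cdt1. Over the deviations of single arrays within groups it was 0.471 for G0s2 and 0.359 for Sesn2, and 0.0486 for Serpinh1. It was below 0 for Cdt1 (-0.0979), Prickle1 (-0.0594) and Hnrnpa2b1 (-0.0449), and above 0 for the rest of these highest genes. Shifts of run and hour were not removed from those deviations. The lowest over the 56 group means were Klf6, a stress-induced transcription factor (r = -0.817), Farp1 (-0.793), Gpr146 (-0.743), Cspg4, a surface proteoglycan (-0.723), and Tcta (-0.719).

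By list, r with Ddit4 over all groups, rapamycin ones included, was highest among the ATF4 targets. Their median was 0.451 over 27 genes, all above 0, and 11 of them exceeded 0.5, as did 3.25% of all genes. The medians were 0.183 for the HIF-1 targets, 0.0165 for the p53 targets, -0.0564 for the mTORC1 pathway and -0.0687 for the glucocorticoid and FOXO targets, with 3 of 32, 2 of 14, 3 of 32 and 1 of 29 over 0.5. Sesn2 is on both the ATF4 and the mTORC1 list. The scores of the rapamycin groups chose the gene and enter all these r values. The lists were not compared without those groups, so their order is a description.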

How the data were processed

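RNA of rat aortic smooth muscle cells (Cy5) and pooled newborn pup RNA (Cy3) were hybridised to 224 Agilent rat arrays, per the labels. The authors deposited 1 table of scores for 11575 probes. Per the series' design text they applied loess, filtered dim probes, imputed missing values from near neighbours, removed components linked to the 4 replicate runs and standardized the data. The sources used here give neither log base nor gene scaling, and the planned log-ratio model was kept. Labels and design text differ on dish size, serum and quiescence.

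A linear model of 56 group means plus a fixed effect of run was fitted to all 224 arrays at once in limma 3.58.1 (R 4.3.3), leaving 165 residual degrees of freedom. Tests were two-sided, adjusted by Benjamini-Hochberg over 11575 probes, and called under 0.05. The fits were tried on simulated data with independent noise on each array and no run term. That trial therefore does not show how calls behave where runs differ. The pairing by run comes from the design text. Deviations correlated at 0.0210 within runs, 0.0654 within run and hour, and -0.0218 across hours.

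Gene names came from the platform annotation (7473 probes with 1 symbol). The gene, lists and comparisons were chosen with earlier results of these data known. Genes named were drawn from Ddit4, the 10 most and 5 least like it, the 3 largest called rises and falls of each list, and 13 fixed genes. Not all of these are printed, so a named gene need not be the largest of its list.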

Additional observations from a re-analysis of the deposited data

Results flagged for a closer look

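In 4 of the 56 groups, 1 of the 4 arrays stood apart in Ddit4 score: its gap to the nearest array, divided by the range of the group, was over Dixon's critical value at the 95% level. Chance gives such a gap in about 1 group of 20. With 1 ng/mL paclitaxel, insulin, 5 mM glucose and 6 h, run D was high at 0.444 against -0.747, -0.585 and -0.557 in runs A to C (ratio 0.840). With 1 ng/mL paclitaxel, vehicle, 25 mM glucose and 24 h, run A was low at -2.51 against 0.386, 0.727 and 0.662 in runs B to D (ratio 0.895). With 0.01 ng/mL rapamycin, insulin, 5 mM glucose and 24 h, run D was low at 0.559 against 2.61, 2.93 and 2.66 in runs A to C (ratio 0.863). With 0.01 ng/mL rapamycin, vehicle, 25 mM glucose and 24 h, run A was low at -1.86 against 0.813, 0.477 and 0.417 in runs B to D (ratio 0.852). Both low run A arrays belong to the 25 mM arm of the glucose comparison at 24 h.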

How the results depend on the processing

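Of 388 recomputed values under 13 alternatives, 371 kept their direction and their side of the threshold or, for the untested rapamycin differences, moved by less than the spread between replicates. Those of 0.01 ng/mL rapamycin lay on both sides of 0 without single replicates, from -0.313 to 0.104 at 6 h and from -0.0835 to 0.414 at 24 h. The insulin difference at 6 h (0.680) passed with the run blocked within each hour (adjusted p = 0.0244), with the compared groups alone (0.009) and with array weights (0.737, adjusted p = 0.0403), did not pass with runs as the unit (0.236) or without any single replicate (0.0575 to 0.498), and without single replicates ranged from 0.447 to 0.814. The glucose difference at 24 h (-0.704) passed with the run blocked within hour (0.0145) and the groups alone (0.0337), did not pass with runs as the unit (0.337) or without replicate A (0.390), B (0.274) or D (0.0679), and without single replicates ranged from -0.976 to -0.424. The hour difference under paclitaxel (1.11) did not pass with runs as the unit, and ranged from 0.590 to 1.59 without single replicates. Near 0, the sign turned for 1000 against 0.01 ng/mL paclitaxel at 24 h under quantile normalization (-0.0229) and without single replicates (-0.159 to 0.278), for the insulin by glucose term at 24 h under normal scores (0.00593), array weights (0.0300) and without single replicates (-0.121 to 0.0173), and for glucose at 6 h without single replicates (-0.247 to 0.158). The cause was not tested. Without the replicate block the insulin and glucose values were 0.680 (adjusted p = 0.0844) and -0.704 (0.0569), the hour value 1.11 (0.000755), and no call changed. The hour comparisons could not be fitted with run blocked within hour, and Ddit4 had no second probe to try.

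Counts of called probes depended most on the unit. For rapamycin 100 ng/mL, 588 at 6 h and 261 at 24 h became 163 to 719 and 59 to 371, and for paclitaxel 1000 ng/mL 34 and 153 became 1 to 61 and 35 to 227. For insulin 818 and 461 became 0 to 1252 and 0 to 682, for glucose 409 and 1159 became 206 to 552 and 0 to 1327, and for hours in DMSO and paclitaxel cells 838 and 2752 became 5 to 1065 and 49 to 3030. All lowest counts came from runs as the unit except that of paclitaxel at 24 h, which came from leaving out run D. The scale of the scores and the absence of intensities limit the values to relative ones.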
